A study of Mus musculus with 4 samples.

Results

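Hormone sensing and the activation of testosterone were followed through 5 genes, namely the hormone receptors *Esr1*, *Nr3c1* and *Prlr* and the steroid reductases *Srd5a1* and *Srd5a2*. These genes were taken by name from the 16892 genes of the count matrix, and all 5 were present. The study profiled single cells of the adult mouse epididymis and vas deferens, the ducts in which sperm mature and are stored. Its 4 libraries are the caput (head), corpus (body) and cauda (tail) of the epididymis and the vas deferens, each 1 pool of 8 pieces from the same 4 FVB/NJ males of 10 to 12 weeks. The labels name no treatment or transgene, and sperm were depleted before the tissue was dissociated. Because each region is a single library, region and library cannot be told apart, the values have no replicates, and regions were not compared by a test.

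Androgens maintain the epididymal epithelium. A 5-alpha reductase turns testosterone into dihydrotestosterone, the more potent androgen. *Srd5a1* and *Srd5a2* encode separate enzymes with this activity, and *Srd5a2* is the form known for male genital tissue. *Esr1* encodes estrogen receptor alpha, known for the reabsorption of fluid in the ducts upstream of the epididymis. *Nr3c1* encodes the glucocorticoid receptor, which is made in nearly all cells, and *Prlr* encodes the prolactin receptor, a cell surface receptor that signals through the kinase Jak2 and the transcription factor Stat5.

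In the GRCm38 assembly, which is the same as the mm10 build of the deposited counts, *Srd5a1* lies on chromosome 13 (69573449 to 69611485) and *Srd5a2* on chromosome 17 (74014891 to 74047860). *Esr1* lies on chromosome 10 (4611989 to 5005633) and *Prlr* on chromosome 15 (10177238 to 10349190). RefSeq gives *Srd5a1* and *Srd5a2* 1 transcription start each, *Esr1* 2 and *Prlr* 3. The 3′ tags counted here cannot tell starts apart. The 250 bases before the start of each reductase are shown because these enzymes share a reaction but not a pattern of expression. Both are read on the minus strand, 5′ to 3′, at chr13:69611464-69611713 and chr17:74047861-74048110 of GRCm38.p6, with each CG pair in capitals. The *Srd5a1* window lies before its listed start but overlaps the end of the gene span given above, at 69611485.
Srd5a1: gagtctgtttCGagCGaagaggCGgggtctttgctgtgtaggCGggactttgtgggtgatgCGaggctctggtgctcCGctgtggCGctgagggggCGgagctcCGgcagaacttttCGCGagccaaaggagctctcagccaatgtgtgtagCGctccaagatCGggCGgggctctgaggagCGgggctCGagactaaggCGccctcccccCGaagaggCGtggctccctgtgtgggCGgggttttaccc
Srd5a2: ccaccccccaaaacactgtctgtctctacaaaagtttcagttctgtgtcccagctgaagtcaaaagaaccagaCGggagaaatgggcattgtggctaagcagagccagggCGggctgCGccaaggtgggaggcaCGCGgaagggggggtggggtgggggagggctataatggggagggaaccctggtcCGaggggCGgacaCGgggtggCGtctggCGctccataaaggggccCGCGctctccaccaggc
The stretch before *Srd5a1* held 20 CG pairs and that before *Srd5a2* held 12, against a median of 6 over 32851 mouse promoters of the same length. As many as 20 pairs occur in 17.9% of those promoters, and as many as 12 in 33.5%. The GC box GGGCGG, counted on both strands, occurred 3 times before *Srd5a1* and 2 times before *Srd5a2*, and it is present in 32.7% of all promoters. TATAA occurred 1 time before *Srd5a2* and not before *Srd5a1*, against 22.8% of all promoters. The letters AGAACA, part of the element that the glucocorticoid receptor recognizes, were in neither stretch and are in 16.1% of all promoters. A match of letters describes the sequence and is not a binding site. *Prlr* and *Esr1* had 2 to 7 CG pairs in the same window before their listed starts.

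The 4 libraries held 1433 to 3506 cells and 4408989 to 10744928 UMIs (unique molecular identifiers, each a captured mRNA molecule). The authors' table places the 8880 cells in 34 populations of 7 cell types, namely 3956 principal, 1412 basal, 348 clear, 2222 stromal, 502 muscle, 245 endothelial and 195 immune cells. Of 29 markers of these types, 27 had their highest level in the type they mark. The exceptions were *Itga6*, which was highest in endothelial cells, and *Cd52*, which was highest in principal cells. Median depth ran from 934 UMIs in principal cells to 4430 in clear cells, and 43 barcodes occurred in 2 libraries.

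Levels are UMIs of a gene per 1000000 UMIs of the group of cells (UPM), followed by an exact 95% Poisson interval. Ratios carry an exact conditional interval and shares of cells a Clopper-Pearson interval. All of these cover counting error only and not the variation between animals or dissociations. A tag marks 1 end of a molecule, so a level does not grow with gene length, but tags may be captured unequally between genes and no level is compared from gene to gene. The populations were defined on these same counts, so differences between them are descriptions.

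The 5 genes had distinct distributions over the cell types. *Prlr* was found mainly in principal cells, the tall secretory and absorptive cells that line the duct. *Srd5a2* was found in basal cells, the epithelial cells at the base of the duct wall, and in principal cells. *Esr1* was highest in clear cells, the acid-secreting cells of the epithelium, followed by muscle and stromal cells. *Nr3c1* was found in each of the 7 types and was lowest in principal cells. *Srd5a1* was sparse throughout.

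**Figure D1:**
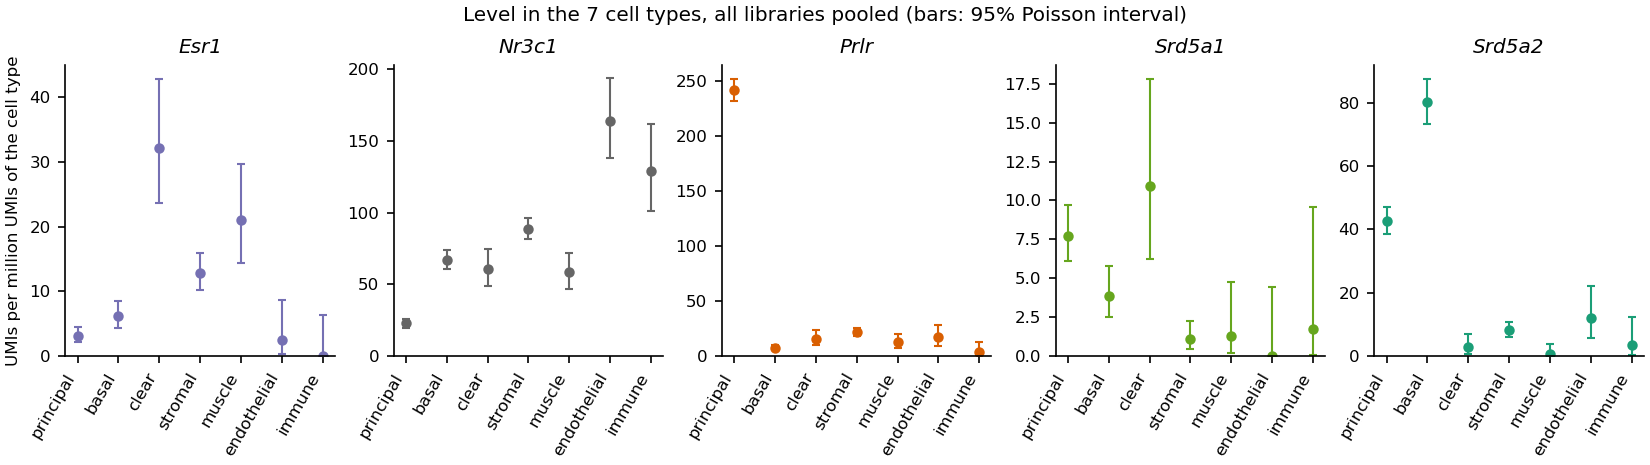
Level of each gene (y axis, UMIs per 1000000 UMIs of the cell type) in the 7 cell types (x axis), with the 4 libraries pooled. Points are levels and bars 95% Poisson intervals. *Prlr* stands at 242 in principal cells and below 22 elsewhere, whereas *Nr3c1* is lowest in principal cells.

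A gene was called for a cell type when its highest type had at least 20 UMIs and at least 2 times the level of each other type, with types below 3 UMIs raised to 3. By this rule 26.9% of the 11352 genes with enough UMIs were called. Of the 5 genes, 4 had enough UMIs and 1, *Prlr*, was called. The same rule between the principal cells of the 4 libraries called 20.6% of 9122 genes. Here 4 of the 5 genes had enough UMIs and 2 were called, *Prlr* for the vas deferens and *Srd5a1* for the corpus.

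*Prlr* increased along the duct. In principal cells it was at 8.70 UPM (4.87 to 14.4, 15 UMIs) in caput, 152 (132 to 173) in corpus, 170 (151 to 191) in cauda and 382 (365 to 401, 1791 UMIs) in vas deferens. The intervals of the corpus and cauda overlapped, and those of the other libraries did not. Corpus principal cells had 17.4 times the caput level (10.3 to 31.7), and vas deferens principal cells had 2.25 times the cauda level (1.99 to 2.55). Between the ends of the duct the ratio was 43.9 (26.6 to 78.7). The step from the corpus to the cauda was 1.12-fold, with an interval of 0.939 to 1.34 that includes 1.

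Shares of cells gave a similar account when each cell was thinned to 1000 UMIs. *Prlr* was detected in 4 of 342 caput principal cells (1.17%, 0.320 to 2.97), 54 of 346 corpus cells (15.6%), 47 of 433 cauda cells (10.9%) and 200 of 773 vas deferens cells (25.9%, 22.8 to 29.1). Without thinning these shares were 1.77%, 14%, 17.3% and 37.0%, at median depths of 844, 658, 889 and 1286 UMIs. The order of the corpus and cauda thus turned with depth, and no order is read there. Over all principal cells the thinned share was 16.1%, against 0.826% in muscle cells, the type with the lowest share. Of the 3956 principal cells, 2062 had under 1000 UMIs and were left out of the thinned shares.

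The 15 principal cell populations resolved this increase. Populations 1 to 3 came from the caput alone, populations 4 and 5 from the caput and corpus, 6 and 7 mostly from the corpus, 8 to 11 mostly from the cauda, and 12 to 15 from the vas deferens. *Prlr* was at 1.96 UPM in principal 1, where 1 UMI was found, 4.74 in principal 2, 24.1 in principal 3, 17.4 in principal 4 and 35.1 (20.4 to 56.2) in principal 5. It was at 317 (266 to 375) in principal 6, 9.04 times the level of principal 5 (5.44 to 16). The level then did not climb steadily. It was 134 in principal 7, 125 in principal 8 and 99.3 in principal 9, before 269 in principal 10, 271 in principal 11, and 390, 418, 438 and 322 in principal 12 to 15.

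Principal 6 therefore stood above its neighbors on both sides, and this held within 1 library. Among corpus cells alone, principal 6 had 306 UPM (255 to 364) and principal 7 had 128 (101 to 160), a ratio of 2.38 (1.78 to 3.21). Principal 11 held cells of both the cauda and the vas deferens, and their *Prlr* level differed by library. It was 220 UPM (166 to 286, 141 cells) in cauda cells and 395 (285 to 534, 100 cells) in vas deferens cells, a ratio of 1.80 (1.17 to 2.73). The cells of principal 5 had 27.9 UPM in the caput and 39.3 in the corpus, a ratio of 1.41 whose interval (0.462 to 5.11) includes 1.

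**Figure D2:**
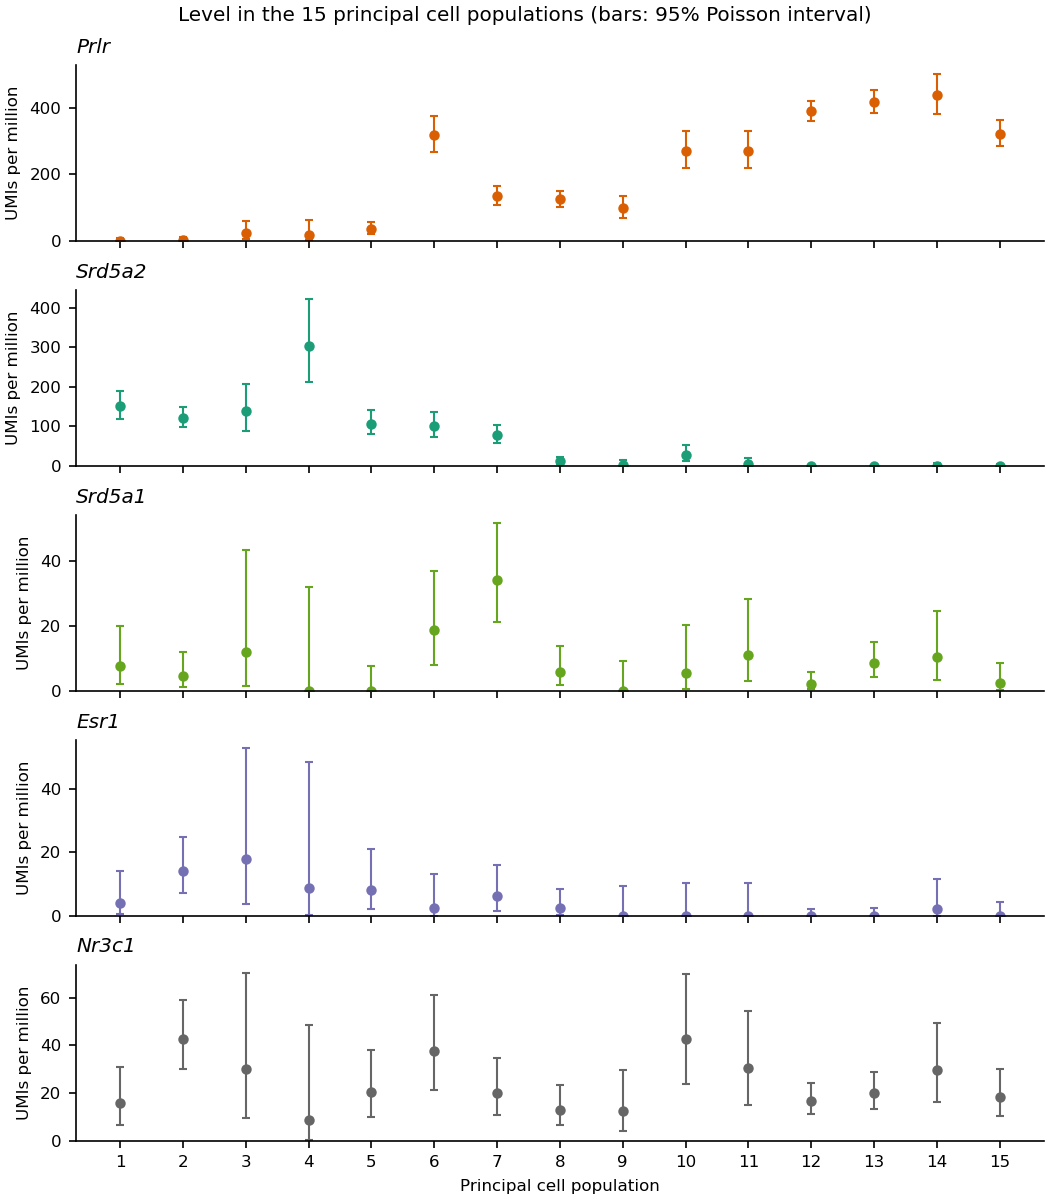
Level of each gene (y axes, UMIs per 1000000 UMIs of the population, a scale of its own for each gene) in principal cell populations 1 to 15 (x axis). Points are levels and bars 95% Poisson intervals. *Prlr* is at 35.1 or below in principal 1 to 5 and at 99.3 or above from principal 6 on, while *Srd5a2* is at 79.2 or above in principal 1 to 7 and at 28.3 or below from principal 8 on.

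Outside principal cells *Prlr* was low, at 21.6 UPM in stromal, 16.8 in endothelial, 15.7 in clear, 12.5 in muscle, 7.12 in basal and 3.44 in immune cells. None of these neighbors in the order differed beyond counting error. Principal cells had 11.2 times the stromal level (9.46 to 13.4), and 4.61 times without the vas deferens library. Some of these UMIs lay in few cells or in cells called doublets. In muscle cells 17 of 19 UMIs were in cells called doublets and 14 were in 1 cell. In endothelial cells 14 UMIs came from 4 cells. In basal cells, free RNA of principal cells at the level shown by *Crisp1* or *Akr1b7*, secretory genes of principal cells, would leave 10.8 of 17 UMIs in the corpus and 9.85 of 14 in the vas deferens. The part of free RNA and of doublets in these counts was not tested.

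Clear cells of the vas deferens had 80.1 UPM of *Prlr* (41.4 to 140), 6.23 times the corpus clear cell level (2.17 to 20.2). These were 12 UMIs in 5 of 38 cells. *Akr1b7* in these clear cells was at 8.23% of its principal cell level, which would leave 4.72 of the 12 UMIs, and its part in the remainder was not tested.

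One stromal population was an exception. Fibroblasts C2 had 81.4 UPM of *Prlr* (59.4 to 109, 45 UMIs in 25 of 153 cells), 5.48 times the level of myofibroblasts (3.62 to 8.25). In the corpus library these fibroblasts had 252 UPM (163 to 371, 25 UMIs in 12 of 36 cells), above the corpus principal cells by 1.66-fold (1.05 to 2.52). In the cauda they had 40.6 UPM and in the vas deferens 57.2. *Crisp1* in the corpus C2 fibroblasts was at 0.456% of its principal cell level, which would leave 0.0687 of the 25 UMIs. None of the 45 UMIs lay in a cell called a doublet. The part of free RNA and of doublets in the C2 counts was not tested.

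*Srd5a2* ran in the opposite direction along the duct. In principal cells it was at 135 UPM (118 to 153, 232 UMIs) in caput, 104 (88.2 to 123) in corpus, 13.8 (8.84 to 20.5) in cauda and 0.854 (0.233 to 2.19, 4 UMIs) in vas deferens. Each step exceeded counting error. The caput level was 1.29 times the corpus level (1.05 to 1.60), the corpus level 7.56 times the cauda level (4.89 to 12.2), and the cauda level 16.1 times the vas deferens level (5.55 to 64.0). From the caput to the vas deferens the ratio was 158 (60.7 to 583). The thinned share of principal cells with *Srd5a2* was 16.1% in caput, 8.09% in corpus, 1.62% in cauda and 0.129% in vas deferens.

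Among the principal populations *Srd5a2* was highest in principal 4, at 304 UPM (212 to 423, 35 UMIs in 74 cells), 2.02 times principal 1, the next in order (1.31 to 3.04). Principal 4 had 303 UPM in its caput cells and 305 in its corpus cells, and the interval of their ratio runs from 0.429 to 2.72. Principal 1, 2, 3, 5 and 6 lay between 101 and 151 UPM, and neighbors among them did not differ beyond counting error. Principal 7 was at 79.2 (59.0 to 104) and principal 8 at 11.9 (5.69 to 21.8), a ratio of 6.68 (3.35 to 14.8). Principal 13, 14 and 15 had 0 UMIs, where 3 UMIs would be 2.15, 6.32 and 3.65 UPM.

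Principal 6 and 7 of the corpus had both mRNAs, with *Prlr* at 317 and 134 UPM and *Srd5a2* at 101 and 79.2. Other populations also had both, such as principal 5 with *Prlr* at 35.1 and *Srd5a2* at 107 UPM. Principal 6 and 7 had 258 cells with at least 1000 UMIs, which were thinned alike. Among these, *Prlr* was detected in 9 of 19 cells with *Srd5a2* (47.4%, 24.4 to 71.1) and in 47 of 239 cells without it (19.7%, 14.8 to 25.3). These intervals overlap. Droplets with more than 1 principal cell would also hold both mRNAs, and their part in this count was not tested.

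Basal cells had the highest pooled level of *Srd5a2*, at 80.1 UPM (73.2 to 87.4, 495 UMIs), against 42.7 (38.6 to 47.0) in principal cells. The pooled ratio of 1.88 (1.64 to 2.14) depended on the mix of libraries and was 1.11 without the vas deferens library. Within libraries the order turned. In the caput, basal cells had 181 UPM (160 to 205), 1.35 times the principal cells (1.12 to 1.62). In the corpus, principal cells had 1.44 times the basal level of 72.2 (1.15 to 1.81). In the cauda the basal level was 10.5 UPM and the ratio of principal to basal cells was 1.32, with an interval of 0.608 to 3.09.

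In the vas deferens the cell types parted. Basal cells there had 37.7 UPM (28.1 to 49.6, 51 UMIs in 44 cells), 44.2 times the principal cell level (16.2 to 168) and 3.61 times the basal cells of the cauda (1.81 to 7.98). Free RNA of principal cells would leave 0.0220 of these 51 UMIs, and in the caput 3.04 of 256, and its part was not tested. *Srd5a2* thus was lowest in the cauda in basal cells and lowest in the vas deferens in principal cells. By the rule of 2 times and 20 UMIs, 2 of the 5 genes had enough UMIs in the basal cells of the libraries and 1, *Srd5a2*, was called, where 10.2% of 7258 genes were called.

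**Figure D3:**
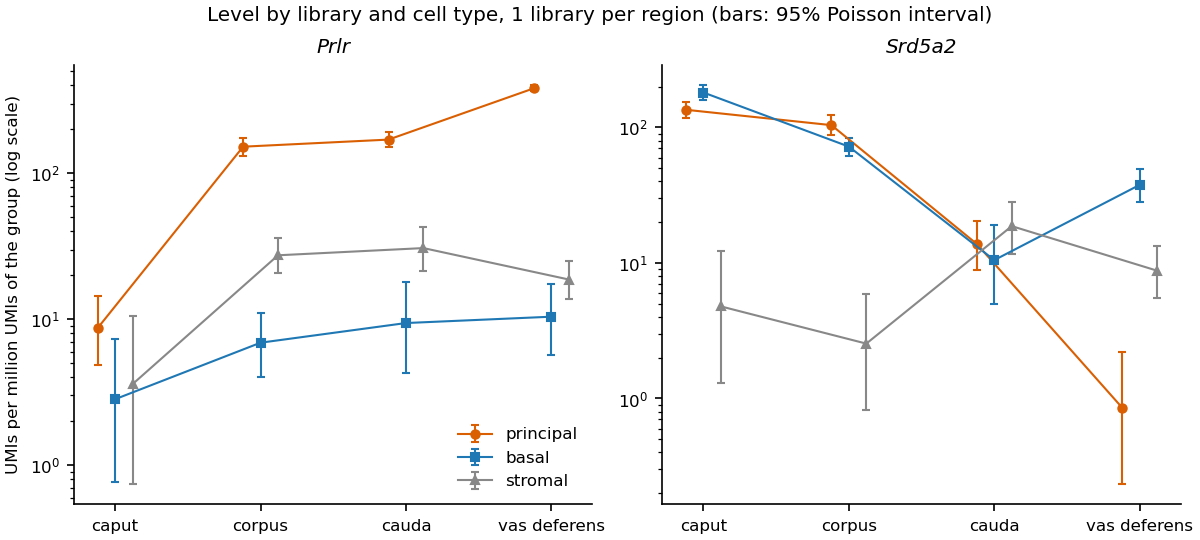
Levels of *Prlr* and *Srd5a2* (y axis, UMIs per 1000000 UMIs of the group, log scale) in principal, basal and stromal cells of the 4 libraries (x axis). Points are levels and bars 95% Poisson intervals, with lines joining 1 cell type. *Srd5a2* falls in principal and basal cells down to the cauda, then reaches 0.854 in principal and 37.7 in basal cells of the vas deferens.

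*Srd5a2* was detected in 3 of the 4 basal populations. Main basal cells had 79.4 UPM (71.9 to 87.6), *Notch2*-high basal cells 58.1 (41.9 to 78.6) and low-UMI basal cells 142 (104 to 188), 1.78 times the main basal cells (1.29 to 2.41). The remaining 15 cells, labelled with macrophages, had 0 UMIs, where 3 UMIs would be 128 UPM. Within the caput library the main and low-UMI basal cells had 182 and 270 UPM, and within the corpus library 68.4 and 80.9. The low-UMI values rest on 32 UMIs in the caput and 12 in the corpus. *Gpx5*, a secretory gene of caput principal cells, was at 1.32% and 4.50% of its principal cell level in the caput cells of these populations. Free RNA at that level would leave 1.78 and 6.06 UPM of *Srd5a2*, and its part in these counts was not tested.

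Stromal *Srd5a2* was low, with 8.17 UPM (6.12 to 10.7, 53 UMIs), and lay in part in fibroblasts C2. That population had 41.6 UPM (26.4 to 62.5), 11.4 times the myofibroblast level (5.63 to 24.0). In the cauda library it had 62.4 UPM (38.1 to 96.4, 20 UMIs in 12 of 74 cells), 4.53 times the cauda principal cells (2.37 to 8.55). The corpus C2 fibroblasts, which had the most *Prlr*, had 0 UMIs of *Srd5a2*, where 3 UMIs would be 30.2 UPM. In caput endothelial cells 10 UMIs of *Srd5a2* came from 5 of 50 cells, and endothelial cells of the other libraries had 0 UMIs.

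*Srd5a1* was detected with 124 UMIs in 120 cells, so its values are wide. In principal cells it was at 5.80 UPM (2.78 to 10.7, 10 UMIs) in caput, 22.6 (15.4 to 31.8, 32 UMIs) in corpus, 2.87 (0.933 to 6.71, 5 UMIs) in cauda and 5.77 (3.80 to 8.39, 27 UMIs) in vas deferens. The corpus stood above the other libraries. It had 3.89 times the caput level (1.86 to 8.87) and 7.85 times the cauda level (3.04 to 25.8), whereas the caput and vas deferens levels had a ratio of 1.01 (0.435 to 2.14).

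Most of the corpus signal came from principal 7, which had 22 UMIs and 34.2 UPM (21.4 to 51.7). Principal 6 had 18.8 (8.11 to 37.0), and the ratio between them, 1.82, had an interval of 0.780 to 4.72. Principal 7 had 5.76 times the level of principal 8 (2.13 to 19.5). No UMI was found in the 74 cells of principal 4, where *Srd5a2* was highest and where 3 UMIs would be 26.1 UPM.

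By cell type *Srd5a1* was at 10.9 UPM (6.26 to 17.8, 16 UMIs) in clear cells, 7.74 (6.08 to 9.71) in principal cells and 3.88 (2.49 to 5.78) in basal cells. The order of clear and principal cells is not settled, since the ratio of 1.41 had an interval of 0.769 to 2.45 and fell to 0.899 without the cauda library. Principal cells had 1.99 times the basal level (1.24 to 3.30). Within libraries the ratio of principal to basal cells was 4.63 (2.32 to 9.88) in the corpus, whereas basal cells had 1.10 times the principal level in the caput (0.395 to 3.01) and the intervals of the other libraries included 1. Stromal cells had 7 UMIs, muscle cells 2, immune cells 1 and endothelial cells 0.

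A pair of relatives was set beside these enzymes. *Srd5a3*, known mainly for making dolichol, was at 19 UPM in corpus principal cells and at 6.32 to 6.83 in the other libraries, and was called for the corpus. *Tecr*, which reduces very long-chain fatty acids, was at 496 UPM in corpus principal cells, 193 in caput, 267 in cauda and 224 in vas deferens cells. It was highest in the corpus but 1.86 times the next library, below the threshold of 2.

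*Esr1* was detected with 232 UMIs in 220 cells. It was at 32.2 UPM (23.6 to 42.8, 47 UMIs) in clear cells, 21.0 (14.4 to 29.6) in muscle, 12.8 (10.2 to 15.9) in stromal, 6.15 (4.35 to 8.43) in basal, 3.14 (2.12 to 4.48) in principal and 2.39 in endothelial cells, with 0 UMIs in immune cells. Clear and muscle cells did not differ beyond counting error (ratio 1.53, 0.957 to 2.48), nor did principal and endothelial cells. In immune cells 3 UMIs would be 5.15 UPM.

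Clear cells had *Esr1* at 52.6 UPM (28.8 to 88.3) in caput, 30.0 (16.4 to 50.3) in corpus and 31.1 (18.4 to 49.1) in cauda tissue, and these intervals overlapped. The vas deferens had 1 UMI in 38 clear cells. Amylin-positive clear cells, found only in the caput and corpus libraries, had 42.5 UPM (23.2 to 71.3) and main clear cells 30.3 (20.9 to 42.6). After thinning, 9 of 238 clear cells had the gene (3.78%, 1.74 to 7.06). The thinned share was 2.48% (1.14 to 4.65) in muscle and 2.18% (1.54 to 3.00) in stromal cells, and both intervals overlap that of clear cells. It was 0 of 158 in immune cells, where 3 cells would be 1.90%. Without thinning the clear cell share was 11.8%, and the median depths of clear and immune cells were 4430 and 2887 UMIs.

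Principal cells had *Esr1* at 10.4 UPM (6.19 to 16.5, 18 UMIs) in caput, 6.34 (2.90 to 12.0) in corpus, 1.15 (2 UMIs) in cauda and 0.214 (1 UMI) in vas deferens. Caput and corpus did not differ beyond counting error. The ratio of the caput to the vas deferens was 48.9, with an interval from 7.72 to 2037. Basal cells fell likewise, from 12.0 UPM (7.02 to 19.3) in the caput to 0.740 (1 UMI) in the vas deferens, a ratio of 16.3 (2.55 to 680).

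Stromal *Esr1* did not follow the epithelium. It was at 10.8 UPM in caput, 3.56 in corpus, 12.8 in cauda and 20.7 (15.5 to 27.2) in vas deferens, where 52 of its 83 UMIs lay. The vas deferens level was 5.83 times that of the corpus (2.64 to 15.2). The stem-like vas stroma had 28.0 UPM (19.2 to 39.6), 3.16 times the secretory vas stroma (1.30 to 9.24). Against myofibroblasts of the same library the ratio was 1.79, with an interval of 0.858 to 4.08. The muscle populations had 26.4 and 19.6 UPM and did not differ beyond counting error.

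*Nr3c1* was present in each cell type. It was at 164 UPM (138 to 194) in endothelial, 129 (101 to 162) in immune, 88.5 (81.4 to 96.0) in stromal, 66.8 (60.5 to 73.6) in basal, 60.9 (48.9 to 74.9) in clear, 58.4 (46.9 to 71.8) in muscle and 22.7 (19.8 to 25.9) in principal cells. Endothelial and immune cells did not differ beyond counting error, and neither did basal, clear and muscle cells in turn. The thinned shares gave endothelial cells another place, at 5.50% (2.78 to 9.63). Immune (10.1%), stromal (8.79%), basal (6.93%), muscle (6.89%) and clear cells (6.72%) all stood above them. Without thinning the endothelial share was the highest, at 35.1%. The place of endothelial cells in the order is therefore not read. By level, muscle cells were next above principal cells, with 2.57 times the principal cell level (1.99 to 3.31). Along the duct, *Nr3c1* in principal cells was at 29.6, 26.1, 21.8 and 19.4 UPM from the caput to the vas deferens, where no neighboring pair of libraries differed beyond counting error. The ratio of the ends was 1.52 (1.06 to 2.17).

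Basal cells exceeded principal cells in *Nr3c1* in each library, by 3.26-fold (2.34 to 4.59) in caput, 2.04-fold in corpus, 2.44-fold in cauda and 3.62-fold (2.69 to 4.88) in vas deferens. Caput basal cells had *Nr3c1* at 96.4 UPM and those of the other libraries at 53.1 to 70.3. Caput basal cells had 1.81 times the corpus level (1.42 to 2.32).

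Some cell types were mixtures for *Nr3c1*. T cells had 453 UPM (336 to 597, 50 UMIs in 23 of 44 cells), 10.7 times the level of macrophages (5.72 to 21.5) and 2.76 times that of endothelial cells (1.96 to 3.85). The 4 libraries gave T cell levels of 573, 510, 399 and 382 UPM from the caput to the vas deferens, on 4 to 21 cells each. After thinning, 12 of 30 T cells had the gene (40%, 22.7 to 59.4), against 52.3% unthinned, while in principal cells the thinned share was 2.06% and the unthinned share 4.95%. Among muscle cells, population 1 had 149 UPM (108 to 199) and population 2 had 36.0 (26.2 to 48.3), a ratio of 4.13 (2.66 to 6.40). Their median depths were 1080 and 5424 UMIs. The stem-like vas stroma had 108 UPM, 2.51 times the secretory vas stroma (1.66 to 3.91).

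**Figure D4:**
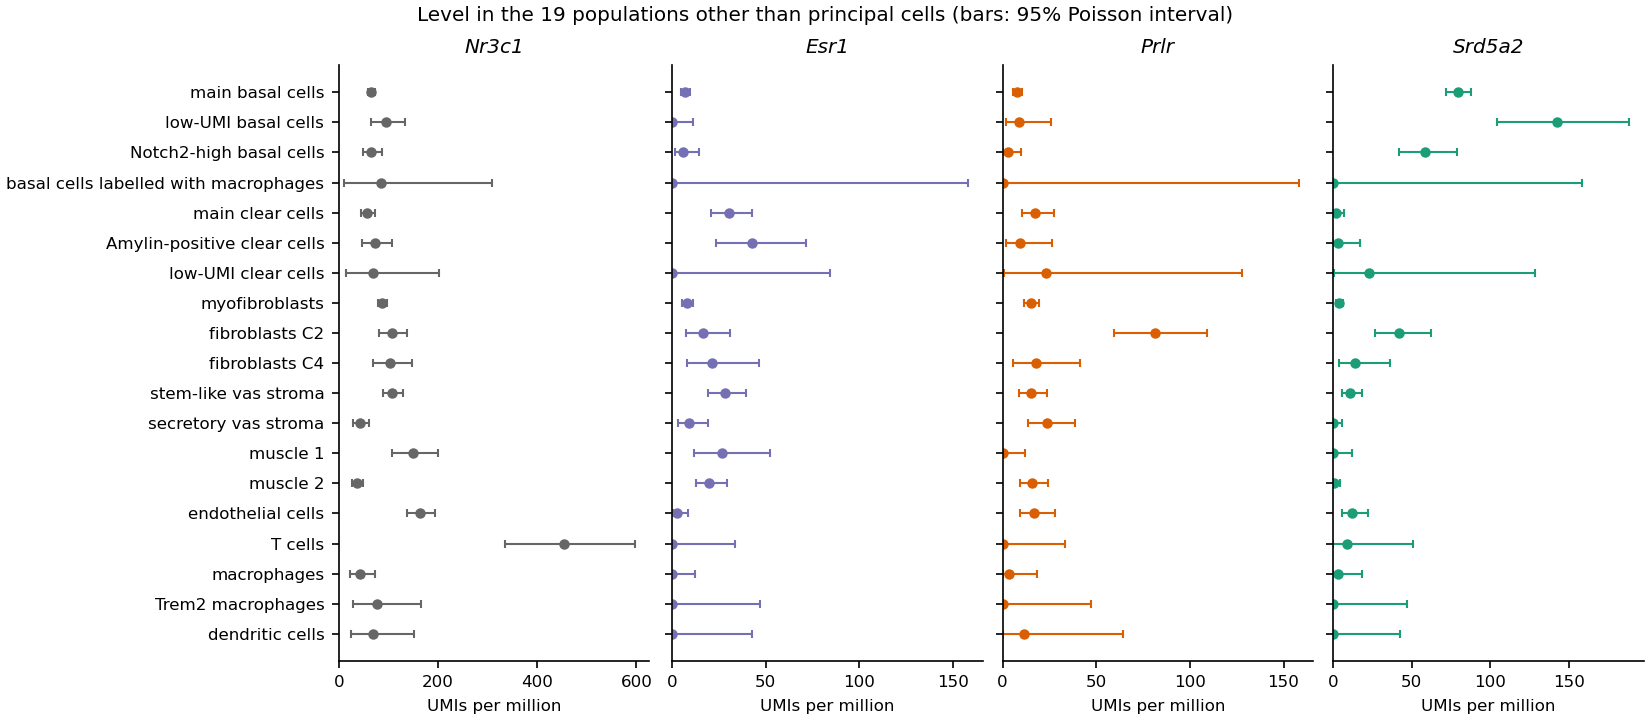
Levels of *Nr3c1*, *Esr1*, *Prlr* and *Srd5a2* (x axes, UMIs per 1000000 UMIs of the population, a scale of its own for each gene) in the 19 populations other than principal cells (y axis). Points are levels and bars 95% Poisson intervals. T cells stand out for *Nr3c1* at 453, fibroblasts C2 for *Prlr* at 81.4, and basal populations for *Srd5a2*.

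The genes around these receptors and enzymes were taken from 8 lists, with 79 of 82 genes in the matrix. For reading the counts, 26.9% of all genes with enough UMIs were called for a cell type, and the median ratio of the highest to the next type was 1.39. Of 7 steroid hormone receptors 5 had enough UMIs and 1 was called, with a median ratio of 1.27. This was *Nr3c2*, the mineralocorticoid receptor, at 17.8 UPM in clear cells (11.6 to 26.1). Its ratio of 3.45 is to immune cells, which had 0 UMIs and were raised to 3. Principal cells had 5.02 UPM.

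Of 21 steroid-metabolizing enzymes 12 had enough UMIs and 4 were called, with a median ratio of 1.78. *Hsd11b1*, which regenerates active glucocorticoid, was at 96.8 UPM (89.4 to 105) in stromal cells, 10.2 times the next type. *Sult1e1*, the estrogen sulfotransferase, was at 188 UPM in stromal cells, 4.02 times the next type. *Por*, which passes electrons to cytochrome P450 enzymes, was at 305 UPM in basal cells, and *Hsd17b12* at 185 UPM in clear cells. Between the libraries, 5 of the 13 enzymes with enough UMIs in principal cells were called, *Srd5a1* among them, against 20.6% of all genes.

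Receptor chaperones hold the steroid receptors ready for their ligands. All 7 had enough UMIs and 1 was called, with a median ratio of 1.16. *Fkbp4* was at 231 UPM in principal cells (222 to 241), 2.47 times the next type, whereas *Hsp90ab1* and *Hspa8* were highest in endothelial cells at 2518 and 2494 UPM, 1.16 and 1.31 times the next type. Of 7 coregulators none was called, with a median ratio of 1.16. *Ncor1* was highest in muscle cells at 322 UPM and *Nrip1* in basal cells at 195.

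None of the 9 glucocorticoid-responsive genes was called by cell type, with a median ratio of 1.33. *Cebpd* was at 2068 UPM in stromal, 1334 in endothelial and 57.1 in principal cells, and *Errfi1* at 1480 in stromal, 1276 in basal and 103 in principal cells. The list had no common order of cell types. *Fkbp5* (64.0 UPM) and *Per1* (58.7), named here after their values were seen, were highest in principal cells.

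Of 11 genes of prolactin receptor signaling 10 had enough UMIs and 1 was called, with a median ratio of 1.18. *Socs1*, an inhibitor of Jak kinases, was at 162 UPM in stromal cells and 6.17 in principal cells. *Socs3* and *Stat3* were highest in endothelial cells at 812 and 503 UPM. Among 6 class I cytokine receptors 5 had enough UMIs and 2 were called, *Prlr* and the leptin receptor *Lepr*. The latter was at 91.0 UPM in endothelial cells, 6.94 times the next type, and *Il6st* was at 287 UPM in muscle cells. Of 12 other hormone receptors with enough UMIs 3 were called, with a median ratio of 1.29. The insulin receptor *Insr* was at 273 UPM and the retinoic acid receptor *Rara* at 104 in endothelial cells, *Rarb* was at 32.2 in clear cells, and *Adipor1* was at 171 in endothelial cells but 1.05 times the next type.

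The genes whose pattern over the 34 populations was most like each of the 5 were found by Pearson's r of log2(UPM + 10), among genes with at least 200 UMIs. For *Prlr* these were *Cutal* (r = 0.886), *Prps2* (0.879) and *Acbd7* (0.872). *Prps2* was highest in principal 13 and 12, and *Acbd7* in principal 8 and 9. For *Srd5a2* they were *Syt12* (0.858), highest in principal 2 and 1, *Spag11a* (0.803), highest in principal 4 and 5, and *Defb29* (0.801), highest in principal 5 and 4. For *Nr3c1* they were *Foxo1* (0.873), highest in endothelial cells and T cells, *Prrc2c* (0.782) and *Peak1* (0.782). For *Esr1* they were *Khdrbs3* (0.801), *Zfp651* (0.787) and *Nkd1* (0.781). For *Srd5a1* they were *Ctbs* (0.726), *Ctsd* (0.718) and *Coasy* (0.717). *Ctbs* and *Ctsd* were highest in the 15 basal cells labelled with macrophages, and *Coasy* in the low-UMI clear cells. *Srd5a1* itself had 1 UMI in each of these populations, below the floor of 3 UMIs. Populations share libraries and depth, so these values are descriptions.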

How the data were processed

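Single cells of 4 regions were captured with 10x 3′ chemistry, 1 library per region. Per the labels and the methods, reads were demultiplexed with bcl2fastq and aligned with HISAT2 2.0.4 to mm10, and ESAT collapsed them to UMIs per RefSeq gene. The authors deposited the raw UMI counts per gene and cell after removing free RNA with a modified SoupX, a table of cell types and populations, and scran size factors, a score per cell that was used only in an alternative. Removal took 2.80 to 4.48% of the UMIs of a library and can lower genes of abundant cells in other types. Cells were grouped by the deposited cell type and population, and counts were summed per group and divided by the group's total (UPM), with Python 3.11.15, NumPy 2.4.6 and SciPy 1.17.1. With 1 library per region no test between groups was made, and intervals (95%) cover counting error only. A group at 0 was raised to a floor of 3 UMIs. Shares of cells were taken after thinning each cell to 1000 UMIs, which left out 3177 cells and kept 5703. Cells were scored with the Scrublet method in scanpy 1.11.5. Those with the highest scores were called doublets, up to a number set beforehand from the number of cells in each library. The 178 cells called (2.00%) are thus an assumed and not a measured rate, and they were kept in the main values. Free RNA was estimated from *Gpx5*, *Crisp1* or *Akr1b7*, the secretory gene of principal cells in each library. The scripts were tested on simulated data. The 5 genes, the lists and the rules were chosen with earlier results of these data known. The text names the 5 genes, the relatives *Srd5a3* and *Tecr*, the genes of each list called by the cell type rule, the 2 of each list with the highest level in any cell type, and for each of the 5 the 3 genes with the most similar pattern. The result of 1 gene of these lists is not reported here. Alternatives were other scalings, each library left out, other thresholds and depths, cells called doublets left out and, added after seeing the data, cells whose barcode occurs in 2 libraries left out.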

Additional observations from a re-analysis of the deposited data

Results flagged for a closer look

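The flagged results are 8 moves of a gene between neighboring libraries, each in 1 cell type and with an interval that excludes a ratio of 1. Each has a move the opposite way in another cell type. They belong to *Prlr* from the cauda to the vas deferens, and to *Srd5a2* from the corpus to the cauda and from there to the vas deferens. With 1 library per region the difference between the cell types was not tested. From the cauda to the vas deferens, *Prlr* was 2.25 times higher in principal cells (1.99 to 2.55) and 1.64 times lower in stromal cells (1.03 to 2.58). The stromal mix differed, with 162 myofibroblasts and 74 fibroblasts C2 among 289 cells in the cauda, and 517 stem-like and 213 secretory cells among 1015 in the vas deferens. Within fibroblasts C2, *Prlr* was at 40.6 UPM in the cauda (21.6 to 69.4) and 57.2 in the vas deferens (23.0 to 118). Within myofibroblasts it was lower in the vas deferens, at 9.86 UPM (6 UMIs) against 25.5 (20 UMIs) in the cauda. The part of the stromal mix in the stromal difference was not tested. From the corpus to the cauda, *Srd5a2* was 7.56 times lower in principal cells (4.89 to 12.2) and 6.91 times lower in basal cells (3.67 to 14.7), but 7.38 times higher in stromal cells (2.73 to 25.0). Of the 22 stromal UMIs in the cauda, 20 were in fibroblasts C2, which made up 74 of 289 stromal cells there and 36 of 659 in the corpus. From the cauda to the vas deferens, *Srd5a2* was 16.1 times lower in principal cells (5.55 to 64.0) and 2.14 times lower in stromal cells (1.13 to 4.05), but 3.61 times higher in basal cells (1.81 to 7.98).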

How the results depend on the processing

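Of 85 alternative ratios, 64 stayed within the counting interval of the reported value, 13 moved beyond it and 8 changed direction, and the 17 for *Esr1* stayed within wide intervals. Its library ratio of 48.9, which rests on 1 vas deferens UMI, became 13.2 in cells with at least 1000 UMIs, 21.2 with the mean of each cell's share and 33.4 with size factors. The cause of the changes was not tested. Taking the mean of each cell's share, the ratio of the highest to the next cell type became 0.904 for *Nr3c1*, 0.815 for *Srd5a1*, 6.87 for *Prlr* and 1.42 for *Srd5a2*, and the library ratio of *Nr3c1* 2.47. Dividing by size factors gave 0.558, 0.493, 8.40, 0.986 and 2.63, and a *Prlr* library ratio of 24.6. Weighting libraries alike gave 0.993, 0.992, 8.86 and 1.19. Leaving out each library in turn gave cell type ratios of 1.32 to 1.61 for *Esr1*, 1.01 to 1.45 for *Nr3c1*, 4.61 (without the vas deferens) to 13.6 for *Prlr*, 0.899 (without the cauda) to 2.14 for *Srd5a1* and 1.11 (without the vas deferens) to 2.67 for *Srd5a2*. At a 4-fold threshold, 1339 genes were called for a cell type and 603 for a library. Of the 15 genes with the most similar patterns, 4 stayed with log2(UPM + 1) and 4 with ranks. The library calls of *Prlr* and *Srd5a1* were lost at 4-fold, and that of *Srd5a1* at a minimum of 50 UMIs. No paired analysis was possible because each region is 1 library and the groups share no more than 1 replicate number. Depth limits *Srd5a1* and *Esr1* most, with 124 and 232 UMIs in all.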

Other observations

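Some genes of the same pathways, chosen after their values were seen, also differed between the principal cells of the libraries. *Cish*, an inhibitor of cytokine receptor signaling known as a Stat5 target, was at 11 UPM in caput, 21.8 in corpus, 42.5 in cauda and 84.8 in vas deferens, 1.99 times the next library and below the threshold of 2. Other genes of prolactin receptor signaling did not follow this order, with *Stat5a* at 56.9 UPM in cauda and 9.61 in vas deferens cells, and *Socs2* highest in the caput at 37.1. The growth hormone receptor *Ghr* was at 10.4, 0.705, 2.87 and 61.1 UPM in the same order, 5.85 times higher in the vas deferens than in the next library. The oxytocin receptor *Oxtr* was at 46.4 UPM in the caput and 12.0 in the corpus, with 0 UMIs in the cauda and vas deferens. *Fkbp5*, a chaperone of steroid receptors, fell from 163 UPM in the caput to 83.9, 48.3 and 27.3 along the duct.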
